A study of Mus musculus with 15 samples.

Results

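B cells of wild-type mice that had grown for 6 days on 40LB feeder cells with IL-4 were compared with B cells of the same kind of culture that then spent 2 days without feeders and were sorted as undifferentiated iGC cells. The comparison takes 9 of the 15 libraries of the series, chosen by their labels: 3 of bulk, unsorted cells at day 6, 3 of IgE iGC cells and 3 of IgG1 iGC cells, both collected at day 8. All 9 come from cells given IL-4 at 100 ng/ml during the 6 days on feeders. The iGC cells then stayed in RPMI medium with no stimulation. Both iGC groups were set against day 6 with equal weight, and then against each other to ask whether the isotypes differed at day 8. The 6 plasma cell libraries entered the estimate of spread and were not compared. The name iGC stands for induced germinal centre B cells, the usual product of this culture system. The labels call the replicates biological but do not name separate mice or cultures, so the p-values measure the spread between these samples. Loss of the feeders, loss of IL-4, the extra 2 days and the sort all separate the iGC libraries from day 6 and cannot be told apart.

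The 40LB line is a mouse fibroblast line engineered to display CD40 ligand, the helper T cell signal that drives B cell proliferation, and to secrete BAFF, a B cell survival factor. IL-4 acts through STAT6 and, together with CD40 signals, makes mouse B cells switch to IgG1 and IgE. CD40 and BAFF receptors activate NF-kB, and with PI3K signalling they promote growth and keep FOXO transcription factors out of the nucleus. When PI3K signalling falls, FOXO factors raise genes of quiescence and of lymphocyte homing.

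The 9 libraries held 17740876 to 40839778 estimated counts, with IgE iGC replicate 3 the smallest. In a principal component analysis of the 1000 most variable genes, the first component held 82.4% of the variance and separated the 3 day 6 libraries from the 6 iGC libraries. The second held 4.83% and set IgE iGC replicate 3 apart from the other 8. Levels are given as CPM, counts per 1000000 after TMM scaling. Where a range is given before and after a change, it covers the 3 day 6 and the 6 iGC libraries. The immunoglobulin constant genes followed the sort labels. Ighe read 587, 546 and 569.8 CPM at day 6, 6176, 5809 and 6232 in IgE iGC and 318, 368 and 372 in IgG1 iGC. Ighg1 read 2857, 2647 and 2716 CPM at day 6, 857, 972 and 937 in IgE iGC and 6404, 6090 and 6116 in IgG1 iGC. Ighm, the unswitched heavy chain, read 4442, 4230 and 4112 CPM at day 6, 202, 237 and 209 in IgE iGC and 395, 356 and 341 in IgG1 iGC. Ighm was high at day 6 alone, and Ighe and Ighg1 were each high in the group sorted for them, so these genes check the labels and are no result. The B cell markers Cd79a and Ms4a1 were abundant in every library (lowest value 683 CPM, for Cd79a). Of the 15 T cell, 15 myeloid, 10 NK cell and 10 mast cell markers listed, 10, 12, 7 and 10 stayed under 1 TPM (transcripts per 1000000, a length-corrected unit) in all 9 libraries, and the T cell gene Cd3e was at 0. The summed level of the tested T cell markers was 10.1 to 12.1 CPM at day 6 and 33.8 to 54.8 in iGC, and that of the myeloid markers 10.4 to 10.9 and 17.2 to 23.9. Most of the first rise was in Cd2, named after its values were seen, at 4.31 to 4.72 TPM at day 6 and 35.4 to 69.2 in iGC. Of the 7 tested T cell markers, 3 were called higher and 2 lower, and of the 5 myeloid markers 2 higher and 2 lower. Among all genes tested, 34.3% were called higher and 38% lower. The summed level of the NK cell markers was 4.61 to 6.70 CPM at day 6 and 1.72 to 3.46 in iGC, with 4 of 5 tested members called lower. The part of such cells in the results was not tested. Fibroblast markers were present at day 6 and low in iGC, as described with the genes that fell. In such bulk samples, fewer cells of a type and less RNA per cell cannot be told apart.

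Most of the transcriptome differed. Of 15692 genes tested with edgeR's quasi-likelihood test, 11342 (72.3%) passed an adjusted p of 0.05 between iGC and day 6, 5382 (34.3%) higher and 5960 (38%) lower in iGC, around a median log2 change of -0.04. The balance turned with only the 9 libraries fitted (5960 higher and 5811 lower, median 0.016) and without immunoglobulin genes (5714 and 5542, median 0.014). A change of at least 2-fold was called for 4578 genes (29.2%), 1871 (11.9%) higher and 2707 (17.3%) lower. Changes are log2 values ± SE of the mean of both iGC groups against day 6.

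The largest rises among genes of at least 10 CPM included genes of homing and of signalling. Ccr6, the receptor for the chemokine CCL20, read 5.63, 3.81 and 4.36 CPM at day 6, 153, 171 and 175 in IgE iGC and 166, 174 and 179 in IgG1 iGC, a 36.8-fold difference (log2 5.20 ± 0.24, adjusted p = 2.1e-10). The naming rule took only called genes of at least 10 CPM with every iGC library on one side of every day 6 library. Of 15692 genes tested, 6706 met it, so such separation was common. In Ccr6 the isotypes overlapped. Pik3cg, the catalytic subunit of PI3K gamma, read 0.749, 0.806 and 0.787 CPM at day 6, 29.4, 27.6 and 28.6 in IgE iGC and 17.3, 15.2 and 15.8 in IgG1 iGC (log2 4.78 ± 0.09, adjusted p = 3.3e-15). Jchain, which links IgM and IgA polymers and is known from plasma cells, read 3.52, 3.58 and 6.34 CPM at day 6, 437, 392 and 380.0 in IgE iGC and 150.1, 149 and 151 in IgG1 iGC (log2 5.79 ± 0.22, adjusted p = 9.3e-12). In both Pik3cg and Jchain, IgE iGC stood above IgG1 iGC. Nuggc, also called SLIP-GC, a GTPase of germinal centre B cells, moved from 0.114–0.457 to 17.5–38.2 CPM (6.37 ± 0.23). Rapgef4, an exchange factor for Rap GTPases that binds cyclic AMP, moved from 0.332–0.454 to 17.1–27.7 CPM (5.75 ± 0.16). Scimp, an adaptor of tetraspanin domains that binds LYN, moved from 0.178–0.355 to 7.78–13.6 CPM (5.29 ± 0.21). Also among the 12 largest rises by the naming rule were Nxpe2 (6.92 ± 0.29), Stum (6.83 ± 0.31), Scml4 (5.81 ± 0.24), Sspn (5.51 ± 0.14) and Klhl14 (4.97 ± 0.26), all under 1 CPM in every day 6 library.

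**Figure D1:**
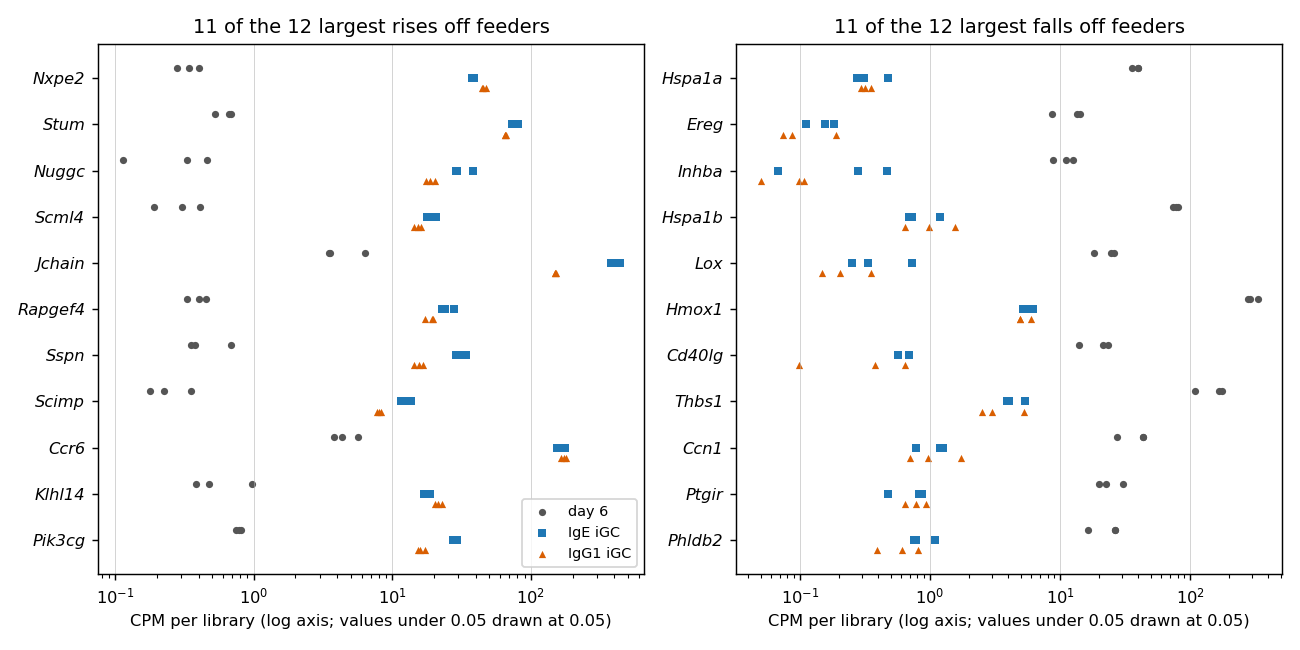
CPM of 11 of the 12 genes with the largest rises (left) and 11 of the 12 with the largest falls (right) in each library, on a log axis, with circles for day 6, squares for IgE iGC and triangles for IgG1 iGC (3 libraries each). The naming rule took genes with no overlap between the groups. Lox, Thbs1 and other fibroblast genes share the right panel with the heat shock genes Hspa1a and Hspa1b.

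Genes at the other end fell into sets that behaved differently among the day 6 libraries. Cd40lg, the CD40 ligand that 40LB cells carry, read 13.9, 23.5 and 21.5 CPM at day 6, 0.569, 0.694 and 0.568 in IgE iGC and 0.0981, 0.644 and 0.377 in IgG1 iGC (log2 -5.36 ± 0.31, adjusted p = 9.5e-10). Thbs1, encoding the matrix protein thrombospondin, read 108, 168 and 176 CPM at day 6, 4.03, 5.33 and 3.87 in IgE iGC and 2.5, 5.26 and 3.01 in IgG1 iGC (log2 -5.24 ± 0.37, adjusted p = 6.9e-08). The ranking by size of fall took only genes with every iGC library below every day 6 library. In both Cd40lg and Thbs1, day 6 replicate 1 was the lowest of the day 6 libraries and every iGC library was lower still. The same held for the collagen gene Col1a1, at 88.9, 138 and 147 CPM at day 6, 19.9, 26.1 and 18.8 in IgE iGC and 11.8, 24.2 and 12.9 in IgG1 iGC (log2 -2.73 ± 0.32, adjusted p = 9.0e-06). Of 25 fibroblast markers tested (of 30 listed), 22 fell and 0 rose by edgeR (0 also at an unadjusted p of 0.05, by DESeq2 and by limma-voom), with a median log2 change of -2.50, and their summed level was 546.5, 827 and 845 CPM at day 6 against 59.3 to 121 CPM in the iGC libraries.

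**Figure D2:**
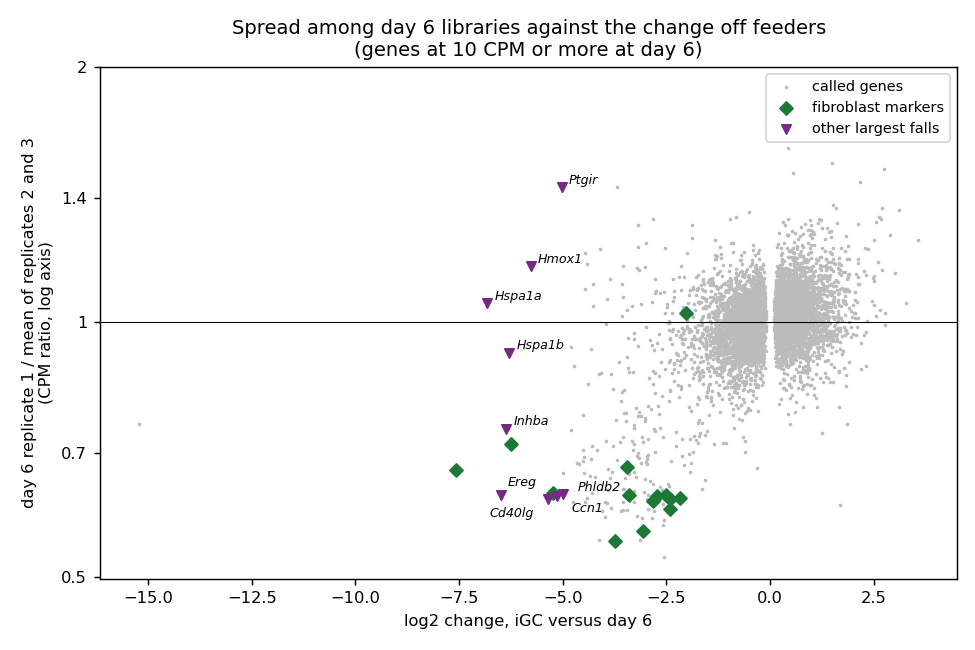
Ratio of the CPM in day 6 replicate 1 to the mean of day 6 replicates 2 and 3 (vertical, log axis) against the log2 change from day 6 to iGC (horizontal) for called genes of at least 10 CPM at day 6. Fibroblast markers (diamonds) lie at a median ratio of 0.62, several of the largest falls (triangles) lie beside them, and Hspa1a, Hspa1b, Hmox1 and Ptgir lie near or above 1; far-left values are genes at or near 0 in iGC, whose fitted change depends on the prior count.

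Since fibroblast markers were lower in day 6 replicate 1, its ratio to the other day 6 libraries was tabulated for every gene. The median ratio was 0.624 for the 14 fibroblast markers that fell and had at least 10 CPM at day 6, and 1.01 for all 8507 genes of that level. A ratio under 0.8 was found for 13 of those 14 markers (92.9%), for 86 of 132 genes that fell at least 8-fold (65.2%), for 156 of 825 that fell at least 2-fold (18.9%) for 5 of 560 that rose at least 2-fold (0.893%) and for 198 of all 8507 (2.33%). Among the 12 largest falls, the ratio was 0.63 for Ereg (an EGF receptor ligand), 0.75 for Inhba (an activin subunit), 0.72 for Lox (a collagen cross-linking enzyme), 0.62 for Ccn1 (a matrix protein) and 0.63 for Phldb2. It was 1.05 for Hspa1a, 0.92 for Hspa1b, 1.16 for Hmox1 and 1.44 for Ptgir, the prostacyclin receptor. How much of each fall comes from feeder RNA in the day 6 libraries was not tested.

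The heat shock and oxidative stress genes among the falls were abundant at day 6 in all 3 libraries. Hspa1a, one of the genes for the inducible chaperone HSP70, read 39.6, 35.6 and 39.7 CPM at day 6, 0.273, 0.472 and 0.31 in IgE iGC and 0.294, 0.349 and 0.319 in IgG1 iGC (log2 -6.82 ± 0.20, adjusted p = 4.6e-13). Its copy Hspa1b read 73.3, 78 and 81.3 CPM at day 6, 1.18, 0.694 and 0.723 in IgE iGC and 1.54, 0.644 and 0.985 in IgG1 iGC (log2 -6.29 ± 0.15, adjusted p = 6.7e-14). The pair share near-identical sequence, so the division of reads between them is uncertain. Hmox1, haem oxygenase, a target of the oxidative stress factor NRF2, read 330.1, 290.5 and 277 CPM at day 6, 5.16, 6.14 and 5.84 in IgE iGC and 4.93, 6.01 and 4.95 in IgG1 iGC (log2 -5.77 ± 0.11, adjusted p = 5.8e-15), a 54.5-fold lower level.

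Function lists were then read against the background of 34.3% higher and 38% lower among all genes tested. There were 30 such lists. Genes of the CD40 and NF-kB response moved in both directions: 16 of 29 tested members rose and 11 fell (median log2 change 0.20). Nfkbia, the inhibitor that NF-kB itself induces, rose, at 93.9, 99.7 and 98.8 CPM at day 6, 194, 204 and 185 in IgE iGC and 219, 230.4 and 224 in IgG1 iGC (log2 1.10 ± 0.08, adjusted p = 3.9e-09), and so did the subunit gene Rel (0.59 ± 0.16) and the death receptor gene Fas (0.56 ± 0.06). Ccl22, a chemokine that attracts CCR4-bearing T cells and is induced by CD40 and IL-4, fell, at 924, 1192 and 1203 CPM at day 6, 70.2, 73.1 and 78.6 in IgE iGC and 242, 247 and 265 in IgG1 iGC (log2 -3.02 ± 0.16, adjusted p = 5.6e-10), with IgG1 iGC between IgE iGC and day 6. Its day 6 ratio was 0.77. Tnfaip3, a feedback inhibitor of NF-kB, fell by less (-0.40 ± 0.09), and Nfkb2 was 0.13 ± 0.07 (adjusted p = 0.12).

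Of the IL-4 and STAT6 response genes, 11 of 25 tested members rose and 12 fell (median -0.30). The cytokine feedback inhibitors fell: Socs1 moved from 10.6–13.1 to 3.25–6.3 CPM (-1.38 ± 0.11) and Cish from 20.5–22.6 to 9.56–13.4 CPM (-0.97 ± 0.10). Fcer2a, the low-affinity IgE receptor CD23 and a classical IL-4 target, remained high, at 1302 to 1358 CPM at day 6 and 884 to 1084 over the 6 iGC libraries (log2 -0.43 ± 0.08, adjusted p = 3.0e-04). In the list of CD40, BAFF and IL-4 receptors and adaptors, 13 of 15 tested members rose and 1 fell (median 0.58). Il4ra rose by 0.58 ± 0.07, Cd40 by 0.42 ± 0.08, the BAFF receptor gene Tnfrsf13c by 0.58 ± 0.05 and Map3k14, the kinase NIK of the non-canonical NF-kB pathway, by 0.99 ± 0.07.

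**Figure D3:**
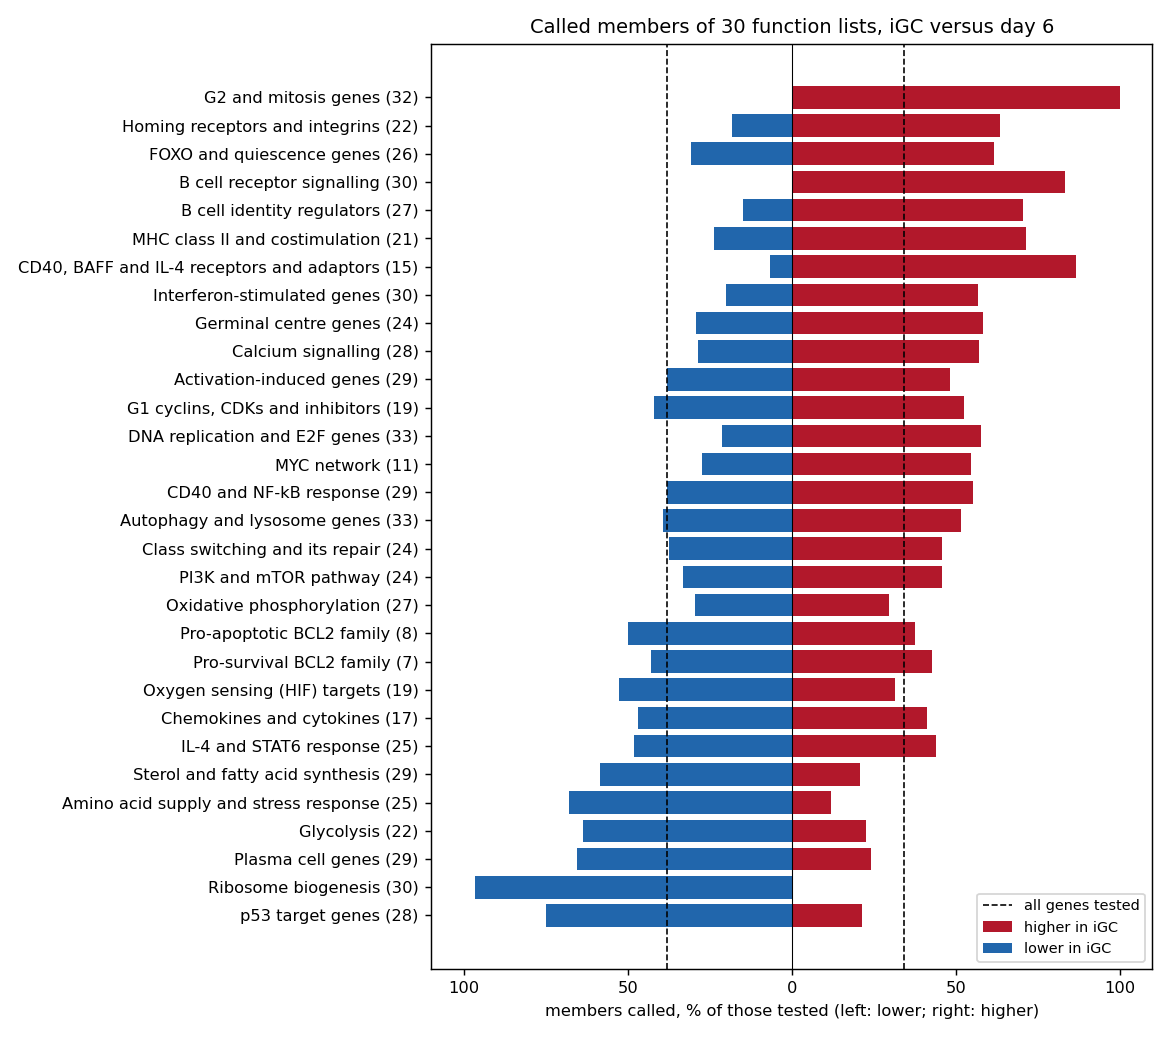
Share of tested members of each function list called higher (right, red) or lower (left, blue) in iGC than at day 6, in percent, with the number tested in parentheses and dashed lines at the shares for all genes tested (34.3% higher, 38% lower). Lists are ordered by median log2 change; G2 and mitosis genes (32 of 32 higher) and ribosome biogenesis genes (29 of 30 lower) stand furthest from the dashed lines.

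Genes of quiescence and growth arrest rose as a majority: in the FOXO and quiescence list, 16 of 26 tested members rose and 8 fell (median 0.92). Btg1, an antiproliferative gene, read 176, 165 and 171 CPM at day 6, 665, 686 and 734 in IgE iGC and 622, 696 and 720.1 in IgG1 iGC (log2 2.01 ± 0.09, adjusted p = 3.0e-11). Pik3ip1, an inhibitor of PI3K, moved from 7.46–8.55 to 29.8–33 CPM (1.95 ± 0.08), and Foxo1 itself from 105–120.2 to 159–184 CPM (0.62 ± 0.06). Ccng2 (1.31 ± 0.08), Txnip, a brake on glucose uptake (1.53 ± 0.20), and the egress receptor gene S1pr1 (1.00 ± 0.10) also rose. Klf2, a FOXO1 target in lymphocytes, fell slightly (log2 -0.27 ± 0.10, adjusted p = 0.022), and this call was lost without day 6 replicate 1 (-0.16, adjusted p = 0.19), IgE iGC replicate 3 (-0.22, adjusted p = 0.058) or IgG1 iGC replicate 3 (-0.25, adjusted p = 0.051). Without any 1 of those 3 libraries, 5 members of the list fell. In the PI3K and mTOR list, 11 of 24 tested members rose and 8 fell. Pik3cd, the main PI3K catalytic subunit of lymphocytes, rose (1.43 ± 0.05) and Mtor fell (-0.64 ± 0.05).

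Genes for making ribosomes fell almost without exception. Among ribosome biogenesis genes, 29 of 30 tested members fell and 0 rose by edgeR (median -0.94); 0 rose at an unadjusted p of 0.05, by DESeq2 or by limma-voom. Ncl, encoding nucleolin, read 1939, 2025 and 2104 CPM at day 6, 937, 921 and 916 in IgE iGC and 997, 962 and 979.7 in IgG1 iGC (log2 -1.09 ± 0.06, adjusted p = 5.7e-10). Polr1b, a subunit of RNA polymerase I, moved from 69.1–84.7 to 34.9–41.1 CPM (-1.03 ± 0.06). The median day 6 ratio of the list was 0.91, beside 1.01 for all genes of at least 10 CPM at day 6. The part of feeder RNA in the falls of this list was not tested. Falls were smaller for Npm1 (-0.41 ± 0.06) and Fbl (-0.40 ± 0.04). Myc, which drives this programme, was not called, at 109, 124 and 125 CPM at day 6, 107, 113 and 92.6 in IgE iGC and 124, 115 and 99.5 in IgG1 iGC (log2 change -0.13 ± 0.07, adjusted p = 0.11). It was called lower without day 6 replicate 1 (-0.19, adjusted p = 0.047) and with total-count scaling (-0.19, adjusted p = 0.035). Its antagonists Mxd4 (1.56 ± 0.06) and Mxd1 (1.31 ± 0.10) rose. In the MYC network as a whole, 6 of 11 tested members rose and 3 fell, or 1 without day 6 replicate 3.

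Biosynthetic and energy lists leaned down, with exceptions. For glycolysis, 5 of 22 tested members rose and 14 fell (median -0.51). Hk2, hexokinase, moved from 57.2–73 to 24.9–29.4 CPM (-1.26 ± 0.06) and the glucose transporter gene Slc2a1 by -0.67 ± 0.07, whereas Pdk1, which diverts pyruvate from mitochondria, rose (0.70 ± 0.05). For sterol and fatty acid synthesis, 6 of 29 tested members rose and 17 fell (median -0.37). Fasn, fatty acid synthase, read 809.9, 837 and 843 CPM at day 6, 284, 280.0 and 261 in IgE iGC and 324, 299.8 and 298 in IgG1 iGC (log2 -1.51 ± 0.05, adjusted p = 6.8e-13). The sterol enzyme genes Idi1 (-0.99 ± 0.09) and Hmgcs1 (-0.60 ± 0.08) fell. For amino acid supply and its stress response, 3 of 25 tested members rose and 17 fell (median -0.43). Phgdh, the first enzyme of serine synthesis, moved from 426–483 to 166–178 CPM (-1.39 ± 0.07), Asns by -1.10 ± 0.08 and the amino acid transporter gene Slc7a5 by -0.79 ± 0.08, while the mitochondrial folate enzyme gene Mthfd2 rose (0.86 ± 0.06). Oxidative phosphorylation genes stayed near the centre: 8 of 27 tested members rose and 8 fell, with a median of -0.03, and Cycs, cytochrome c, stood out with a fall of -1.07 ± 0.10.

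The cell cycle lists did not move together. In the G1 list, 10 of 19 tested members rose and 8 fell. Ccnd2, the cyclin D of activated B cells, read 938, 1091 and 1055 CPM at day 6, 230.4, 229 and 195 in IgE iGC and 236, 229 and 213 in IgG1 iGC (log2 -2.21 ± 0.06, adjusted p = 2.3e-13). Its partner kinase gene Cdk6 read 223, 232 and 229 CPM at day 6, 49.4, 48.4 and 51 in IgE iGC and 56.7, 50 and 52 in IgG1 iGC (log2 -2.15 ± 0.07, adjusted p = 1.1e-12). The mean levels were 4.63-fold and 4.45-fold lower, and Ccnd3 fell as well (-0.98 ± 0.06). The groups did not overlap in Ccnd2 and Cdk6, as in all 6706 genes that met the naming rule. Of the CDK inhibitors, Cdkn1b (p27), a FOXO target, rose from 24.7–26.7 to 60.9–67.3 CPM (1.30 ± 0.07) and Cdkn2d by 1.77 ± 0.08. Cdkn1a (p21), the p53 target, fell (-4.07 ± 0.11). Replication genes changed by small amounts in most cases: 19 of 33 tested members rose and 7 fell (median 0.23, range -0.99 to 2.05), 3 of them at least 2-fold higher. Mcm5, of the replicative helicase, rose by 0.22 ± 0.05 and the licensing factor gene Cdc6 fell (-0.24 ± 0.07), with Mcm2 at 0.03 ± 0.05 (adjusted p = 0.64) and Pcna at -0.03 ± 0.05 (adjusted p = 0.65).

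All 32 tested genes of the G2 and mitosis list rose by edgeR (median 1.17), 20 of them at least 2-fold. Plk1, the mitotic polo kinase, read 21, 22.2 and 22.3 CPM at day 6, 46.7, 48.4 and 51.4 in IgE iGC and 45.3, 40.4 and 43.4 in IgG1 iGC (log2 1.07 ± 0.10, adjusted p = 6.9e-08). Top2a, which untangles chromosomes, read 199, 205 and 209 CPM at day 6, 528, 519 and 583 in IgE iGC and 482, 463 and 505 in IgG1 iGC (log2 1.33 ± 0.10, adjusted p = 9.8e-09). Aurkb (1.53 ± 0.06), Foxm1, the transcription factor of G2 genes (1.48 ± 0.09), Mki67 (0.80 ± 0.09) and Ccnb1 (0.55 ± 0.08) rose too. The summed level of the list was 1432 to 1488 CPM at day 6, 3249 to 3739 in IgE iGC and 2751 to 3001 in IgG1 iGC.

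**Figure D4:**
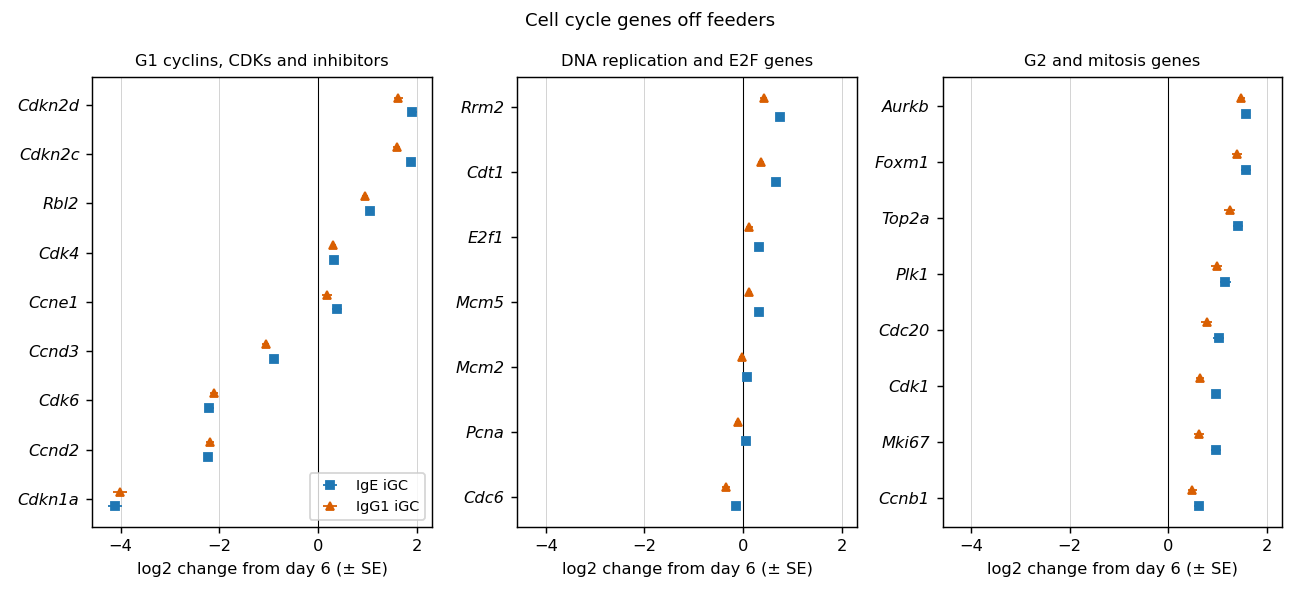
Log2 change from day 6 of cell cycle genes in IgE iGC (squares) and IgG1 iGC (triangles), 3 libraries a group, with bars of ± SE, in 3 panels for G1, replication and G2 or mitosis genes. Ccnd2, Cdk6 and Cdkn1a lie far below 0, the replication genes plotted lie between -0.5 and 1, and the mitotic genes plotted all lie above 0; both groups share the day 6 libraries.

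The promoters of mitotic genes share short elements known to bind the MuvB and NF-Y factors, and the windows of 2 of these genes are shown so that those elements can be seen. The windows run from 250 bases before to 50 after the RefSeq start on build GRCm38.p6, 5′ to 3′ on the gene's strand, and the first window listed was used for each gene. Capitals mark the cell cycle homology region (CHR, TTTGAA or TTCGAA) and CCAAT boxes, on either strand.
Plk1, chr7:122159185-122159484, plus strand: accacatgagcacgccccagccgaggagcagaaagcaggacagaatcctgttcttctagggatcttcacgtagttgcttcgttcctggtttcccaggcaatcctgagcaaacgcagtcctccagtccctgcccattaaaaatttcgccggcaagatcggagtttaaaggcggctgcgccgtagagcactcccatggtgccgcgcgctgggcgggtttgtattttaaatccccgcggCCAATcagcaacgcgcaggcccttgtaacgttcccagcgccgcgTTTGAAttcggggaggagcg
Top2a, chr11:99024140-99024439, minus strand: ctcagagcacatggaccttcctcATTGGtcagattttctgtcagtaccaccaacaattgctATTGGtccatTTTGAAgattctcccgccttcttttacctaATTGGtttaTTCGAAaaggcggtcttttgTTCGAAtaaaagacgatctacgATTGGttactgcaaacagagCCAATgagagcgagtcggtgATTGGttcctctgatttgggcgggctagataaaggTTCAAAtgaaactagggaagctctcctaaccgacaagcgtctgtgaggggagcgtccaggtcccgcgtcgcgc
The Plk1 window holds 1 CHR match and 1 CCAAT box, and the Top2a window holds 4 and 6. A CHR match was present in 21 of the 26 G2 and mitosis genes with a window (80.8%), in 5 of 27 replication genes (18.5%), in 1 of 25 ribosome biogenesis genes (4%) and in 19.4% of all 27025 windows. CCAAT was present in 20 of those 26 (76.9%), in 17 of 27 replication genes (63%) and in 37.9% of all windows. The E-box CACGTG, the MYC element, was present in 6 of 25 ribosome biogenesis windows (24%), in 4 of 23 CD40 and NF-kB response windows (17.4%), in 7.24% of all windows and in 10.1% of the 10546 windows of genes tested. Among the latter, CHR was present in 14.2% and CCAAT in 39.2%. These matches describe the sequence and are not measured binding.

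Survival genes moved in both directions. Of the pro-survival BCL2 family, 3 of 7 tested members rose and 3 fell. Mcl1 read 412, 403 and 391 CPM at day 6, 883, 854 and 837 in IgE iGC and 754, 769 and 768 in IgG1 iGC (log2 1.01 ± 0.06, adjusted p = 2.5e-10). Bcl2 read 85.7, 80.4 and 68.9 CPM at day 6, 166, 159 and 155 in IgE iGC and 143, 138 and 139.8 in IgG1 iGC (log2 0.94 ± 0.07, adjusted p = 1.6e-08). Both were higher in every iGC library than in any day 6 library, a separation common among the genes tested. Bcl2l1, which encodes BCL-XL and is a CD40 target, read 49.4, 49.3 and 52.3 CPM at day 6, 12.1, 13.9 and 13.8 in IgE iGC and 16.8, 16.9 and 16 in IgG1 iGC (log2 -1.76 ± 0.07, adjusted p = 1.0e-11), lower in every iGC library. Of the pro-apoptotic members, 3 of 8 rose and 4 fell. Bmf, a FOXO target, moved from 6.63–7.31 to 19.9–31.8 CPM (1.91 ± 0.09), and Pmaip1 (NOXA), a p53 target, from 89–101 to 20.9–24.3 CPM (-2.07 ± 0.07). Bax fell by less (-0.51 ± 0.07).

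Targets of p53 were lower: 6 of 28 tested members rose and 21 fell (median -1.04). Besides Cdkn1a, at 182, 203 and 214 CPM at day 6, 11.8, 12.7 and 9.4 in IgE iGC and 12.4, 13.2 and 11.6 in IgG1 iGC, Phlda3, an AKT inhibitor, moved from 54.9–63.6 to 7.26–10.4 CPM (-2.82 ± 0.13), Aen, an apoptosis nuclease, from 136–146 to 48.8–50.2 CPM (-1.53 ± 0.04) and Ccng1 from 726–746 to 292–322 CPM (-1.24 ± 0.06). Mdm2, the ligase that degrades p53, fell as well (-1.56 ± 0.09). Some of these varied with the feeder markers at day 6: the ratio of replicate 1 to the others was 0.74 for Mdm2 and 0.66 for Eda2r, but 0.99 for Ccng1, 0.94 for Aen, 0.88 for Phlda3 and 0.87 for Cdkn1a. The part of feeder RNA in these falls was not tested.

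Most B cell identity genes were higher. In that list, 19 of 27 tested members rose and 4 fell (median 0.69). Ebf1, a B lineage transcription factor, read 56.6, 51.1 and 54.9 CPM at day 6, 146, 153 and 167 in IgE iGC and 172, 154 and 162 in IgG1 iGC (log2 1.55 ± 0.09, adjusted p = 7.2e-10). Cr2, the complement receptor CD21, read 3.72, 3.65 and 3.5 CPM at day 6, 41.2, 40.3 and 47.4 in IgE iGC and 56.6, 57 and 59.6 in IgG1 iGC (log2 3.78 ± 0.14, adjusted p = 6.2e-12). Ets1 (1.48 ± 0.06), Irf8 (1.17 ± 0.05), Id3 (1.24 ± 0.11), Cd79a (1.23 ± 0.07) and Ms4a1 (0.78 ± 0.12) rose as well. Over the whole list, changes ranged from -1.45 to 3.78. The rise of Pax5 was small (log2 0.34 ± 0.13, adjusted p = 0.032); its adjusted p was 0.066, 0.098 and 0.062 without day 6 replicate 1, 2 or 3 and 0.053 without IgG1 iGC replicate 1. The number of B cell identity genes that fell was 2 without day 6 replicate 1, IgE iGC replicate 3 or IgG1 iGC replicate 3.

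Germinal centre genes were mostly higher: 14 of 24 tested members rose and 7 fell (median 0.51). Mybl1, a transcription factor of centroblasts, read 18.2, 17.2 and 17.3 CPM at day 6, 223, 215 and 204 in IgE iGC and 158, 128 and 128 in IgG1 iGC (log2 3.29 ± 0.22, adjusted p = 1.1e-08). S1pr2, which confines B cells to the germinal centre, read 7.87, 7.27 and 8.04 CPM at day 6, 68.8, 61.9 and 59.1 in IgE iGC and 35.7, 33.6 and 33.5 in IgG1 iGC (log2 2.59 ± 0.08, adjusted p = 3.3e-13). Bcl6, the master regulator of the germinal centre, moved from 55.7–73.6 to 91.5–128 CPM (0.84 ± 0.10). Plasma cell genes were mostly lower: 7 of 29 tested members rose and 19 fell (median -0.81). Sdc1 (CD138) moved from 9.46–12.2 to 0.956–2.31 CPM (-2.68 ± 0.15), Xbp1 from 297–305 to 124–192 CPM (-0.97 ± 0.10). Irf4 changed by -0.81 ± 0.06 and the chaperone gene Hspa5 by -1.23 ± 0.08. Jchain, described above, was 1 of the 7 that rose. Of the 10 plasma cell markers, 3 rose and 7 fell. Besides Jchain, the markers that rose were Tnfrsf17, from 0–0.05 to 0.06–1.1 TPM, and Prdm1, from 0.89–1.51 to 1.33–2.39 TPM. Both were low throughout. Plasma cells had been sorted away from the iGC cells and not from the day 6 culture, and the share of these differences that the sort sets was not tested. Sdc1 was lowest in day 6 replicate 1, at 6.22, 7.94 and 8.46 TPM, as the fibroblast markers were. The median day 6 ratio of the plasma cell list was 0.99. The part of feeder RNA in the fall of Sdc1 was not tested.

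Antigen receptor signalling genes were mostly higher: 25 of 30 tested members rose and 0 fell by edgeR (median 0.77). At an unadjusted p of 0.05 and by limma-voom 0 fell as well, while 2 were called lower by DESeq2 and 2 with total-count scaling. Cd22, an inhibitory co-receptor, read 572, 556 and 538 CPM at day 6, 1744, 1790 and 1931 in IgE iGC and 1736, 1643 and 1690 in IgG1 iGC (log2 1.66 ± 0.08, adjusted p = 6.4e-11). Blnk, the adaptor below SYK, rose by 1.17 ± 0.06, Btk by 0.74 ± 0.05, Lyn by 0.57 ± 0.05 and the phosphatase gene Ptpn6 (SHP-1) by 0.72 ± 0.06. In calcium signalling, 16 of 28 tested members rose and 8 fell (median 0.33). Atp2a3, the calcium pump SERCA3, read 318, 276 and 274 CPM at day 6, 956, 979 and 961 in IgE iGC and 846, 843 and 832 in IgG1 iGC (log2 1.64 ± 0.05, adjusted p = 1.0e-12), while its ubiquitous relative Atp2a2 fell (-0.59 ± 0.05), as did Atp2b1 (-0.70 ± 0.07) and Orai1 (-0.71 ± 0.10); Orai2 (0.71 ± 0.05) and Stim1 (0.54 ± 0.05) rose.

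Immediate-early and activation genes split, and 14 of 29 tested members rose and 11 fell. Fos rose from 2–3.55 to 11–24.9 CPM (2.84 ± 0.36) and Junb by 1.06 ± 0.12, and Egr2 fell from 77.9–86.7 to 36.4–44.8 CPM (-1.04 ± 0.09). Cd83, an activation marker, rose (1.01 ± 0.08). Genes for antigen presentation and costimulation were mostly higher: 15 of 21 tested members rose and 5 fell (median 0.66). Icosl, the ligand of the T cell costimulator ICOS, read 4.22, 4.57 and 3.78 CPM at day 6, 74.2, 75 and 82.5 in IgE iGC and 80.7, 78.8 and 82.6 in IgG1 iGC (log2 4.23 ± 0.11, adjusted p = 1.0e-13). Cd86 moved from 13.2–16.4 to 64.4–86.5 CPM (2.36 ± 0.13). Pdcd1lg2 (PD-L2) moved from 2.49–2.94 to 21–26.8 CPM (3.10 ± 0.12), and Cd80, the other CD28 ligand, fell (-0.91 ± 0.09). Cd74, the MHC class II chaperone, rose by 1.11 ± 0.07 and H2-Eb1 by 1.06 ± 0.07.

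Besides Ccr6, most homing genes rose: 14 of 22 tested members rose and 4 fell (median 0.94). Ccr7, the receptor for T zone chemokines, read 14.6, 16.9 and 16.3 CPM at day 6, 72.7, 64.8 and 58.7 in IgE iGC and 80.9, 84.1 and 77.4 in IgG1 iGC (log2 2.19 ± 0.12, adjusted p = 2.1e-10). Itga4 moved from 39.3–41.8 to 160.1–189 CPM (2.11 ± 0.14) and Cxcr5, the follicle homing receptor, by 0.98 ± 0.09. Gpr183 (EBI2) fell (-0.35 ± 0.07) and Cxcr4 was -0.10 ± 0.10 (adjusted p = 0.38), called lower without IgG1 iGC replicate 1 (-0.18, adjusted p = 0.033). Among cytokine genes, Ltb moved from 145–182 to 548–621 CPM (1.89 ± 0.09), Lta by 1.60 ± 0.11 and Tnf by 0.85 ± 0.12, while Ebi3 fell (-0.81 ± 0.09). Of that list, 7 of 17 tested members rose and 8 fell.

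The remaining lists were mixed. Of interferon-stimulated genes, 17 of 30 tested members rose and 6 fell (median 0.55). Irf7 rose by 1.61 ± 0.13, while Ifit1 was 0.34 ± 0.24 (adjusted p = 0.22). Of autophagy and lysosome genes, 17 of 33 tested members rose and 13 fell (median 0.19). Ctss, the protease that processes the class II invariant chain, rose (1.24 ± 0.05) and Sqstm1, the autophagy receptor p62, fell from 643–668 to 176–202 CPM (-1.83 ± 0.08). Of oxygen-sensing targets, 6 of 19 tested members rose and 10 fell (median -0.20), with falls in Ndrg1 (-2.82 ± 0.18), Bnip3 (-1.96 ± 0.08) and Vegfa (-1.68 ± 0.08). Of genes for class switching and its repair, 11 of 24 tested members rose and 9 fell (median 0.17); the mismatch repair gene Msh6 fell (-0.78 ± 0.05).

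The isotypes were then set side by side. Against day 6, 10850 genes (69.1%) were called in IgE iGC and 10730 (68.4%) in IgG1 iGC, 2 comparisons that share the day 6 libraries. IgE iGC was then tested against IgG1 iGC directly, and 607 genes (3.87%) were called. The day 6 culture was not sorted by isotype, so a difference that arose off feeders and one already present at day 6 cannot be told apart. Of these, 312 (1.99% of those tested) were higher in IgE iGC and 295 (1.88%) in IgG1 iGC, and 124 (0.79%) differed by at least 2-fold. The count of 607 depends on the libraries and the tool. It was 335, 350 and 403 without IgE iGC replicate 1, 2 or 3 and 380, 352 and 323 without IgG1 iGC replicate 1, 2 or 3. DESeq2 called 937, and a fit to the 9 libraries alone called 1571. Of the 4578 genes that changed at least 2-fold from day 6, 249 (5.44%) differed between isotypes and 74 (1.62%) by at least 2-fold. Their median absolute log2 change from day 6 was 1.78 and their median absolute difference between isotypes 0.24. For 2400 of the 4578 (52.4%) the 95% interval of the isotype difference (limma-voom) lay within 2-fold, and for the others it did not bound the difference that closely.

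**Figure D5:**
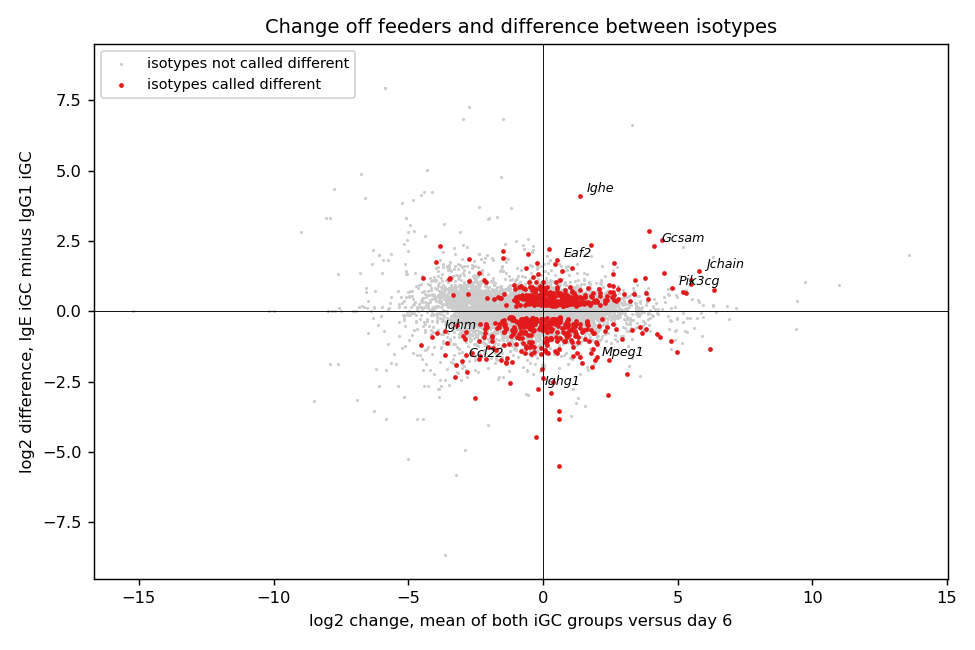
Log2 difference between IgE iGC and IgG1 iGC (vertical) against the log2 change of their mean from day 6 (horizontal) for all 15692 genes tested, with the 607 called between isotypes in red. Most genes lie along the horizontal axis, and Gcsam, Jchain and Pik3cg combine a rise from day 6 with a higher level in IgE iGC; Ighe and Ighg1 were set by the sort, and wide vertical scatter without a call comes from low counts.

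Genes higher in IgE iGC included several that had risen most from day 6. Gcsam, a germinal centre signalling adaptor, read 1.38, 0.924 and 1.12 CPM at day 6, 48.1, 43.2 and 43.6 in IgE iGC and 10.9, 7.81 and 8.23 in IgG1 iGC. The isotypes differed by 2.32 ± 0.14 (log2, adjusted p = 1.7e-07). Eaf2, an elongation factor partner of germinal centre B cells, read 13.2, 15.4 and 13 CPM at day 6, 40.4, 32.9 and 38.2 in IgE iGC and 11.8, 10.2 and 9.76 in IgG1 iGC. It rose in IgE iGC (1.42) and fell in IgG1 iGC (-0.39), a difference of 1.81 ± 0.15 (adjusted p = 8.1e-06). Jchain differed by 1.42 ± 0.18 (adjusted p = 2.8e-04) and S1pr2 by 0.89 ± 0.08 (adjusted p = 8.1e-06). Trerf1, Cryz and Slc24a2 completed the 6 largest among genes of at least 10 CPM, at 1.34 ± 0.15, 1.44 ± 0.11 and 1.34 ± 0.19. Slc24a2, a sodium, potassium and calcium exchanger, rose in IgE iGC (0.50) and fell in IgG1 iGC (-0.85).

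Genes higher in IgG1 iGC included signalling and activation genes. Ccl22 differed by -1.77 ± 0.19 (adjusted p = 1.4e-04), having fallen by a log2 value of -3.90 in IgE iGC and -2.14 in IgG1 iGC. Mpeg1, the pore-forming protein perforin-2, read 10.2, 9.53 and 13.3 CPM at day 6, 22.6, 22.8 and 23.4 in IgE iGC and 71.9, 76.1 and 77.8 in IgG1 iGC (isotype difference -1.71 ± 0.19). Ptprj, the phosphatase CD148 that acts on antigen receptor signalling, read 13.2, 11 and 11.4 CPM at day 6, 6.25, 6.67 and 7.18 in IgE iGC and 18.9, 18.7 and 18.9 in IgG1 iGC. It fell in IgE iGC (-0.83) and rose in IgG1 iGC (0.67), a difference of -1.50 ± 0.13 (adjusted p = 9.9e-06). Syk, the first kinase below the antigen receptor, rose in both but further in IgG1 iGC, at 176, 149 and 154 CPM at day 6, 226, 226 and 241 in IgE iGC and 389, 379 and 398 in IgG1 iGC (difference -0.75 ± 0.06, adjusted p = 6.2e-06). Nr4a1, an immediate-early gene of antigen receptor signalling, read 4.2, 5.09 and 5.41 CPM at day 6, 1.96, 2.08 and 1.91 in IgE iGC and 5.39, 5.13 and 4.35 in IgG1 iGC. The isotype difference was -1.32 ± 0.16 (adjusted p = 2.3e-04). Bhlhe40, an activation-induced repressor, read 30.6, 37.8 and 39.2 CPM at day 6, 50.9, 51.7 and 48.9 in IgE iGC and 121, 122 and 125 in IgG1 iGC (difference -1.28 ± 0.11, adjusted p = 8.1e-06). The ranking by size of isotype difference took only genes with no overlap between the isotypes. The separation of Ccl22, Mpeg1 and Ptprj was therefore set by that rule. Cobl (-1.50 ± 0.20), Ppl (-1.41 ± 0.20) and Plbd1 (-1.38 ± 0.16) were the others among the 6 largest at that level.

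By list, called differences between isotypes were read against 3.87% of all genes tested. They numbered 5 of 29 in the CD40 and NF-kB list, all higher in IgG1 iGC, and 8 of 29 in the plasma cell list and 4 of 24 in the germinal centre list, all higher in IgE iGC. In the activation list, with 29 members tested, 7 were higher in IgG1 iGC and 1 in IgE iGC. Among other lists, 5 of 17 chemokine and cytokine genes and 4 of 30 interferon-stimulated genes were called, all higher in IgG1 iGC. Of 22 homing genes, 3 were higher in IgG1 iGC and 2 in IgE iGC. Called differences numbered 1 of 30 among ribosome biogenesis genes and 2 of 32 among G2 and mitosis genes, both near the share of 3.87%. Every tested G2 and mitosis gene read higher in IgE iGC, by log2 0.08 to 0.57 (median 0.17), but members of a list are not replicates. Their summed level was 3265, 3249 and 3739 CPM in IgE iGC and 3001, 2751 and 2955 in IgG1 iGC. The highest sum was that of IgE iGC replicate 3, the library with the fewest counts. For ribosome biogenesis genes the difference ran from -0.30 to 0.03 (median -0.12). Icosl (-0.06 ± 0.10, adjusted p = 0.85) and Ccnd2 (-0.05, adjusted p = 0.86) are examples of large changes from day 6 for which no isotype difference was called.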

How the data were processed

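Strand-specific, 76-base single-end reads of polyA RNA were made from 15 libraries in 5 groups of 3. Per the submitters' processing notes the authors used cutadapt 1.9.1, STAR 2.5.2a, RSEM 1.3.0, DESeq2 1.12.3 and build GRCm38; the annotation release is not given in the sources used here. The deposited expected counts (estimated counts of RSEM, which divides ambiguous reads and so blurs near-identical genes) and the deposited TPM values were used for 51912 identifiers. Expected counts were rounded to whole numbers. The fit used genes passing filterByExpr (minimum count 10, total 15; 15692 genes), TMM scaling and edgeR 4.0.16 quasi-likelihood tests over all 15 libraries, which share 1 estimate of spread (biological coefficient of variation 10.4%, 10 residual degrees of freedom). P-values were Benjamini-Hochberg adjusted over all genes, with calls at 0.05. The SE is the log2 change divided by the square root of F, an approximation. Isotype intervals (95%) came from limma 3.58.1 (voom). R was 4.3.3, and DESeq2 1.42.0, Python 3.11.15, pandas 2.3.3 and numpy 2.4.6 were used for alternatives and summaries. On simulated counts for iGC versus day 6 (15083 genes), the fit recovered 89.5% of 67 genes changed 1.5-fold. It recovered 100% of 67 at 2-fold and 100% of 66 at 4-fold, and called 0.06% of unchanged genes. Only these few genes were changed in that run, while 72.3% of genes tested were called in the real libraries. Recovery and false calls under such wide change were not tested.

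Genes named were those marked as key in 37 lists (30 of function and 7 of markers, 756 genes, 706 tested), the 12 largest rises and falls from day 6 with a mean of at least 10 CPM and no overlap between the groups, the 6 largest isotype differences each way, the 6 largest among genes called in opposite directions in the isotypes, and Ighe, Ighg1 and Ighm; immunoglobulin segments, predicted models and pseudogenes were left out of the ranked sets. A few genes that this rule names are not reported here. The members and lists were chosen with earlier results of these data known. Promoter windows came from the RefSeq table of build GRCm38.p6. Alternatives changed the scaling, the gene filter, the test, the libraries in the fit and the immunoglobulin genes, added a replicate block and left out each library in turn.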

Additional observations from a re-analysis of the deposited data

Results flagged for a closer look

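IgE iGC and IgG1 iGC differed at day 8 for 607 genes by the direct test between them. The shared day 6 culture was not sorted by isotype, so differences that arose off feeders cannot be told apart from earlier ones. The values below are log2 differences, IgE iGC minus IgG1 iGC, for the genes named in the results, all with an adjusted p under 0.05 by edgeR. Higher values in IgE iGC were found for Gcsam (2.32), Eaf2 (1.81), S1pr2 (0.89), Nuggc (0.76), Pik3cg (0.82), Scimp (0.67), Sspn (0.98), Jchain (1.42) and the pro-apoptotic gene Bmf (0.37). The call for Nuggc was lost without IgG1 iGC replicate 2 (0.71, adjusted p = 0.053). That for Scimp was lost without IgE iGC replicates 1 or 3 or any 1 IgG1 iGC replicate (adjusted p = 0.073 to 0.098), and that for Bmf without IgE iGC replicates 1 or 2 or IgG1 iGC replicates 1 or 3 (adjusted p = 0.08 to 0.13). Cryz (1.44), Trerf1 (1.34) and Slc24a2 (1.34) were also higher in IgE iGC.

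Higher values in IgG1 iGC were found for Ccl22 (-1.77), Mpeg1 (-1.71), Ptprj (-1.50), Cobl (-1.50), Ppl (-1.41), Plbd1 (-1.38), Nr4a1 (-1.32), Bhlhe40 (-1.28), Syk (-0.75) and Cd2 (-0.78). Ppfibp2 (-0.72) and Bcl2a1d (-0.67), a pro-survival BCL2 relative with near-identical copies whose reads may be divided wrongly, were called in opposite directions against day 6: Bcl2a1d read 50, 61.9 and 60 CPM at day 6, 45.4, 43.4 and 44.4 in IgE iGC and 62.6, 70.8 and 78.1 in IgG1 iGC, -0.37 in IgE iGC and 0.30 in IgG1 iGC on the log2 scale. Of the constant genes, Ighe (4.11) and Ighg1 (-2.75) follow the sort, and Ighm (-0.75) was lower in IgE iGC.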

How the results depend on the processing

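The count of genes called between iGC and day 6 stayed within 1.5 times 11342 under every alternative run, from 10037 with a stricter filter to 12068 with none. The count called between isotypes (607) did not: it was 937 with DESeq2, 1571 when only the 9 libraries were fitted, and 323 to 596 when 1 library was left out (403 at most for an iGC library); 603 of the 607 were among the 1571 and 602 among the 937. The labels do not say whether replicate numbers pair the samples. Between libraries sharing a number, gene deviations had a mean correlation of 0.016, from -0.048 to 0.084. Different numbers gave -0.0078, which is tied to the first value because deviations cancel out inside each group. With 3 libraries a group, these values cannot decide whether the samples were paired. With a replicate block 11275 genes were called between iGC and day 6, 11188 of them shared, and 580 between isotypes, 544 shared. The median change of oxidative phosphorylation genes (-0.03) turned to 0.022 with only the 9 libraries and 0.032 without immunoglobulin genes; the cause was not tested. Depth limits what genes of low counts can show. IgE iGC replicate 3 had the fewest counts (17740876), and 11389 genes were called between iGC and day 6 without it, 11031 of them shared.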

Other observations

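Hspa1a, Hspa1b and Hmox1 were among the largest falls and no list covered them. Heat shock genes and NRF2 antioxidant genes were therefore listed after their values had been seen. Both lists include regulators and are given as a description without a test. Of 16 heat shock genes, 15 were called lower in iGC and 0 higher (median log2 change -2.31), beside 38% of all genes called lower. Hsph1, an HSP70 partner, read 695, 673 and 695 CPM at day 6, 58.1, 54.7 and 58.5 in IgE iGC and 60.1, 59 and 57.6 in IgG1 iGC (-3.57 ± 0.04). Hsp90aa1, the inducible HSP90, read 2635, 2557 and 2585 CPM at day 6, 506, 501 and 502 in IgE iGC and 508, 512 and 513 in IgG1 iGC (-2.35 ± 0.05), and the most abundant member, Hspa8, moved from 4852–5031 to 1346–1502 CPM (-1.81 ± 0.04). The 1 member not called was Hsf1, the transcription factor that induces heat shock genes (0.03 ± 0.07, adjusted p = 0.71 by edgeR). The isotype difference of Hsp90aa1 was -0.02 ± 0.06 (adjusted p = 0.93). The median ratio of day 6 replicate 1 to the other day 6 libraries was 1.01, against 0.62 for the fibroblast markers.

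Of 18 genes in the NRF2 antioxidant list, 14 were called lower and 2 higher in iGC (median -1.68). Among all genes tested, 38% were called lower and 34.3% higher. The median day 6 ratio of the list was 1.05. Txnrd1, thioredoxin reductase, read 594, 569 and 557 CPM at day 6, 81.6, 81.9 and 78.9 in IgE iGC and 76.6, 77.9 and 81.2 in IgG1 iGC (-2.85 ± 0.04). Gclm, the regulatory subunit of the first enzyme of glutathione synthesis, read 80.4, 73.9 and 69.3 CPM at day 6, 11.2, 11.3 and 10.5 in IgE iGC and 10.2, 10.8 and 11.6 in IgG1 iGC (-2.77 ± 0.06). The 2 members called higher were regulators, and both rises were slight by edgeR. They were Nfe2l2, which encodes NRF2 itself (log2 0.15 ± 0.06, adjusted p = 0.042), and its inhibitor Keap1 (log2 0.16 ± 0.06, adjusted p = 0.036).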
